A study of Homo sapiens with 4 samples.

Results

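The genes described here are the amino acid and related transporters of 7 solute carrier (SLC) families, SLC1, SLC3, SLC6, SLC7, SLC36, SLC38 and SLC43, in hypoxic and normoxic HCT116 cells. A gene was a member if its symbol in the annotation of the array platform named 1 of these families and its probe set was listed for that gene alone. By this rule 62 of 19775 genes were members, 56 of them transporter genes and 6 antisense or opposite-strand genes that carry a transporter's name. HCT116 is an established human colon carcinoma line. Serum was withdrawn from all cells for 24 h, and 1% oxygen (hypoxia) or 21% oxygen (normoxia) followed for 72 h. Both groups had 2 arrays, titled exp A and exp B and here lettered A and B, with labelled cRNA made from 6 µg of total RNA. Separate cultures are not stated for A and B, so the p-values rest on the spread between these arrays, which may be technical. The model draws the spread of each gene towards that of genes with similar signal. The SE and p-value of a gene thus do not measure its own spread alone. A culture with fewer cells of a kind and a culture with less RNA per cell cannot be told apart in such bulk samples.

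Amino acids cross the cell membrane mainly through solute carriers. SLC3 proteins are heavy chains that bring SLC7 light chains to the cell surface, where the pair swaps an amino acid inside the cell for another outside. SLC1 proteins carry acidic or neutral amino acids with sodium, SLC38 proteins carry small neutral amino acids such as glutamine and alanine with sodium, and SLC6 proteins couple sodium and chloride to the uptake of taurine, creatine, neurotransmitters or neutral amino acids. SLC36 proteins move small amino acids, some of them together with protons and at the lysosome, and SLC43 proteins carry large neutral amino acids or nucleobases. In colon epithelium and in tumours derived from it, these carriers supply glutamine and leucine for growth and cystine for glutathione.

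Values are MAS5 signals, the summary brightness of a probe set on a linear scale, and each gene is given by the probe set that was brightest on average over the 4 arrays. A signal of a gene can be compared between arrays, but not with that of another gene. Genes whose mean reached 97.4, the median over all probe sets, were tested, which left 38 members, 36 of them transporter genes. A gene was called higher or lower in hypoxia at an adjusted p under 0.05 (limma, Benjamini-Hochberg over 12636 genes). The difference of a gene is its log2(signal + 23.7) in hypoxia less that in normoxia, printed with its SE; this scale makes changes of dim genes look smaller. Further probe sets of a gene are given only where they passed the same limit, unless said otherwise.

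All arrays had the same trimmed mean, 500.1, so directions are relative to the other genes on the array. The labels' oxygen levels were matched by the 5 measured genes of a list of 6 known hypoxia targets, all 5 called higher; VEGFA, for example, went from 4490.2 and 3542 to 19382 and 15177. The 7 epithelial markers had summed signals of 80225 and 93947 in normoxia and of 127990 and 116900 in hypoxia, with 4 called higher. Of 7 fibroblast markers, 4 were tested and 1, COL1A1, was called higher (545 and 595 against 1752 and 2162), and their summed signal was between 759.8 and 1354 in normoxia and between 2571 and 2819.6 in hypoxia. Leukocyte and endothelial markers summed to between 119 and 537 on the 4 arrays, and none was called. The part of these markers in the results on transporters was not tested. Probe sets for Bacillus RNAs, which report RNA that human cells do not make, reached 120.5 in normoxia and 305.3 in hypoxia.

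Transporter genes moved in both directions. Of the 38 tested members, 6 (15.8%) were called higher in hypoxia, against 15.3% of all genes tested, and 9 (23.7%) lower, against 22.8%. The 15 called members were 39.5% of those tested, against 38.0% of all genes, so the members were called about as often as the background. The 6 that rose were SLC1A1, SLC6A6, SLC6A13, SLC6A15, SLC36A4 and SLC38A2. The 9 that fell were SLC1A3, SLC1A5, SLC3A2, SLC7A11, SLC38A1, SLC38A5, SLC38A9, SLC38A10 and SLC43A3. The groups did not overlap in these 15 genes; counting every tested member, they did not overlap in 24 of 38, against 72% of all tested genes. The median log2 difference was 0.18 over the members and -0.03 over all genes tested. Of the 38 tested members, 10 had a normoxia mean under the filter and passed it through their hypoxia signals. Another 6 had a hypoxia mean under it and passed through normoxia: SLC7A2, SLC36A1, SLC38A6, SLC38A7, SLC43A2 and SLC43A3. The counts are thus a description only. None of the 6 antisense or opposite-strand genes was called, and 4 of them were too dim to be tested; the other two, SLC7A6OS and SLC7A14-AS1, had differences of 0.20 and 0.52. Hybridization controls had mean log2 signals of 11.25 and 12.17 on normoxia A and B and of 13.27 and 13.07 on hypoxia A and B. Their level thus differed within normoxia too. With each array scaled to these controls, the median difference of all genes was lowered to -1.40. No member was then called higher and 14 were called lower. Among the 15 called members and SLC7A5, those that turned negative were SLC36A4, SLC38A2 and SLC7A5. Relative to all genes the members' median was then 0.23, against 0.20 with the signals as deposited. This relative median changed sign in other settings. It was -0.24 without hypoxia B, -0.17 without _x_at and _s_at probe sets and -0.59 with a filter at the 75th percentile. The counts also turned on single arrays, with 10 members higher and 13 lower without hypoxia A (19.9% and 29.7% of all genes), and 4 and 3 without normoxia A (9.53% and 10.8% of all genes).

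**Figure D1:**
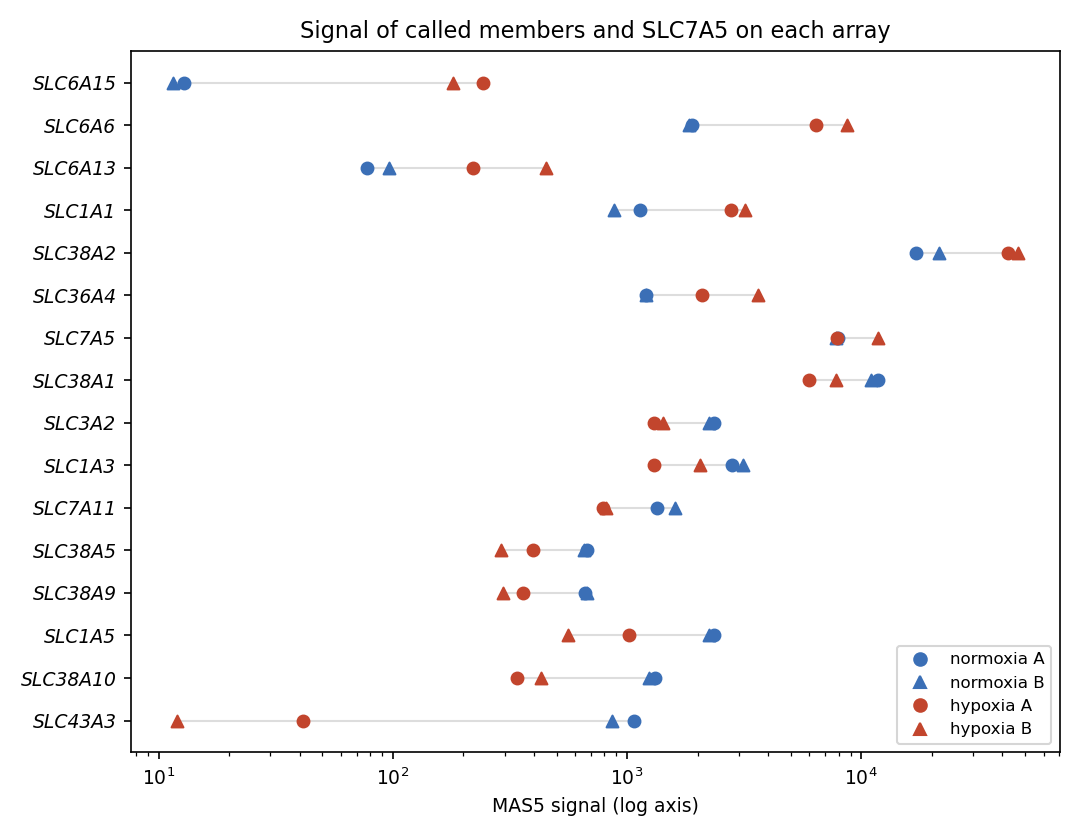
MAS5 signal (log axis) of the 15 called members and of SLC7A5 on each of the 4 arrays, sorted by log2 difference; blue marks normoxia and red hypoxia, circles are arrays A and triangles arrays B. The colours do not overlap in the 15 called genes, while for SLC7A5 the hypoxia A signal (7866) lies between the normoxia signals (7792 and 7964). When arrays are scaled to hybridization controls, SLC36A4 (-0.26) and SLC38A2 (-0.25) are negative and not called, above the all-gene median of -1.40.

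The promoters of the genes were read because many carriers of this group are known targets of ATF4, the transcription factor of the amino acid response, and hypoxia acts through HIF factors. Windows from 250 bases before to 50 after the gene start came from RefSeq (GRCh38.p14) for 47 of the 62 members, 11 of the 15 called, 70 windows in all. The C/EBP-ATF response element was searched as TGATGNAA on both strands, and 3.6% of all 35116 windows hold it. It was found in 6 of the members' 70 windows. Of genes that fell, 4 of 16 windows held it (4 of 7 genes), and of genes that rose, 0 of 5 windows (0 of 4 genes). Of genes tested and not called, 2 of 29 windows held it. The 3.6% is a share of windows, and no such share was made for genes. Sequence outside the windows was not searched, and SLC6A6, SLC6A15, SLC7A11 and SLC43A3 had no window. A difference between genes that rose and fell was not tested. The 6 matches are printed because 4 of them belong to genes that fell; each lies in capitals in the 5′ to 3′ sequence of the gene's strand, and a match on the other strand begins with TT and ends in CATCA. SLC1A3 (chr5:36596357-36596386, plus strand), SLC1A5 (chr19:46784893-46784922, minus), SLC3A2 (chr11:62881725-62881748, plus) and SLC38A1 (chr12:46266502-46266531, minus) were called lower. SLC1A4 (chr2:64989381-64989410, plus) and SLC7A1 (chr13:29595663-29595692, minus) were not called. RefSeq gives 3 starts for SLC1A3, SLC1A5 and SLC3A2 and 2 for SLC38A1 and SLC1A4, and the window of only 1 of them holds the match.
SLC1A3: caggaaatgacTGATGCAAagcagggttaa
SLC1A5: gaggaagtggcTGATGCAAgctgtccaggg
SLC3A2: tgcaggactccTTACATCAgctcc
SLC38A1: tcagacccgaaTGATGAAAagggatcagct
SLC1A4: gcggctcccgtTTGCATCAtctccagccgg
SLC7A1: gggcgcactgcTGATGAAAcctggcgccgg

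The core of the hypoxia response element was searched as ACGTG or GCGTG on both strands, and 48.4% of all windows hold it. It was in 46 of the members' 70 windows (65.7%), in 3 of the 5 windows of genes that rose and in 11 of the 16 windows of genes that fell. The 150 bases before the start of SLC1A1 (chr9:4490318-4490467, plus strand) and SLC38A2 (chr12:46372774-46372923, minus strand) are shown because both genes rose and within these bases only SLC1A1 holds the core, 3 times on the other strand, as CACGC in capitals with an overlap between the last matches. A match is a run of letters and was not tested as a binding site.
SLC1A1: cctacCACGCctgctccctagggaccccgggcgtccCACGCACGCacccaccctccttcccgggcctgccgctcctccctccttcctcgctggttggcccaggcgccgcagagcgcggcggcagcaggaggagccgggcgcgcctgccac
SLC38A2: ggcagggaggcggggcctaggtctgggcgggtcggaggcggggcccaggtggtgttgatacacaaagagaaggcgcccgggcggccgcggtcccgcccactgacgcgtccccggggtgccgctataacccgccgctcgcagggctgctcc

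Taurine is an osmolyte and antioxidant that cells take up from outside. SLC6A6, its transporter, rose from 1859 ± 40.7 (mean ± SD, n = 2 arrays) to 7526 ± 1599. Its signals were 1888 and 1830.5 in normoxia and 6395.5 and 8657 in hypoxia. The log2 difference was 1.99 ± 0.19 (limma, adjusted p = 0.000135), and its further probe sets past the filter gave 1.70 and 1.88. The dimmer ones, under the filter, gave 1.34 and 0.89, the latter with overlapping groups. Scaled to hybridization controls, the difference of SLC6A6 was 0.54 and not called (adjusted p = 0.512 by limma), above the all-gene median of -1.40. SLC6A8, the creatine transporter of the same branch of the family, was not called (0.53, adjusted p = 0.154 by limma). Its normoxia signals were 1233 and 1324, and its hypoxia signals of 2482 and 1381 lay above them, the B array only narrowly. A further probe set of SLC6A8 had the opposite sign (-0.54).

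The other SLC6 genes that rose were dim. SLC6A13, a GABA transporter of peripheral tissues, had signals of 77.1 and 95.9 in normoxia and of 219.8 and 448 in hypoxia (1.63 ± 0.56, adjusted p = 0.0478 by limma). SLC6A15, a sodium-coupled carrier of branched-chain amino acids and proline, had 12.8 and 11.5 in normoxia and 243 and 180.5 in hypoxia (2.70 ± 0.91, adjusted p = 0.0442 by limma). Both hypoxia arrays were above both normoxia arrays in each gene. The normoxia means of both genes, and all 4 of their hypoxia values but 1, were under 305.3, the highest signal of the Bacillus probe sets in hypoxia. Both calls were lost when single arrays were left out: that of SLC6A13 without normoxia A, normoxia B or hypoxia B (1.15 to 1.75), and that of SLC6A15 without each of the 4 in turn (2.51 to 2.90). Of the 5 probe sets for SLC6A15, only the 1 used passed the filter; the other 4 gave log2 differences from -0.81 to 1.01, and the mean of all 5 gave 0.45 (adjusted p = 0.517 by limma). With normoxia signals this low the pseudocount sets the size for SLC6A15, which was 3.999 and not called with a pseudocount of 1 (adjusted p = 0.0842 by limma) and 1.47 with 100. The GABA and betaine transporter SLC6A12 went from 40.5 and 34.8 to 156 and 313 without being called (2.01, adjusted p = 0.0635 by limma).

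Of 18 SLC6 genes 9 were tested, 3 were called higher and 0 lower (15.3% and 22.8% of all genes), and the difference was positive in 8 and negative in 1, with a median of 0.99. The exception, SLC6A17, a vesicular amino acid carrier of neurons, had overlapping groups (206 and 128 against 247 and 40.1), and a second probe set of it had a difference of 1.90. The amine carriers SLC6A2 (noradrenaline) and SLC6A3 (dopamine) and the gut neutral amino acid carrier SLC6A19 had differences of 0.09, 0.99 and 0.84 and were not called. For 6 of the 9 tested genes the normoxia mean was under the filter, so these passed it through their hypoxia signals. The filter thus favours rises here, and the family's count, signs, median and mean signal are a description only. The mean log2 signal of the 9 genes, relative to all genes tested, was -2.22 and -2.07 in normoxia and -0.88 and -0.98 in hypoxia. With scaling to hybridization controls the median difference of the 9 genes was -0.22, against -1.40 over all genes, and 0 were called higher.

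Glutamate carriers of the SLC1 family moved in opposite directions. SLC1A1, which takes up glutamate, aspartate and cysteine, rose from 1006 ± 176 to 2981.5 ± 306 (n = 2). The arrays read 1131 and 881 in normoxia and 2765 and 3198 in hypoxia (1.55 ± 0.20, adjusted p = 0.000553 by limma). Its second probe set gave 1.42. Scaled to hybridization controls, the difference of SLC1A1 was 0.11 and not called (adjusted p = 0.903 by limma), above the all-gene median of -1.40. SLC1A3, a glutamate and aspartate carrier known from glia, fell from 2798.5 and 3114 to 1298 and 2046 (-0.85 ± 0.23, adjusted p = 0.0185 by limma). Both hypoxia arrays of SLC1A3 were below both normoxia arrays, A further than B. The call of SLC1A3 was lost without normoxia A (-0.92) or normoxia B (-0.77), and with the mean of all its probe sets the difference was -0.12. Without hypoxia A it was -0.52.

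Among the neutral amino acid exchangers, SLC1A5 fell. This gene encodes ASCT2, a main glutamine importer of tumour cells. Its signals were 2349 and 2247 in normoxia and 1023 and 559.6 in hypoxia, a log2 difference of -1.57 ± 0.28 (adjusted p = 0.00235 by limma). Both hypoxia values of SLC1A5 were under both normoxia values, and the B array was the lower. The TGATGCAA run printed above lies at 1 of its 3 RefSeq starts. Its relative SLC1A4, a carrier of serine and alanine, was not called (0.43, adjusted p = 0.578 by limma). The SLC1A4 groups overlapped (244 and 162 against 152 and 492), and its 3 further probe sets past the filter were negative, from -0.63 to -0.22.

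The heavy chain SLC3A2, also known as CD98 or 4F2hc, fell, while its best-known partner SLC7A5 was not called. SLC3A2 had signals of 2341 and 2229.6 in normoxia and of 1304 and 1419.9 in hypoxia (-0.74 ± 0.18, adjusted p = 0.0111 by limma). The groups of SLC3A2 did not overlap, and its call was lost without normoxia A (-0.70) or normoxia B (-0.77), and without an intensity trend (adjusted p = 0.0641 by limma). SLC7A5, the leucine importer LAT1, had 7964 and 7792 in normoxia and 7866 and 11828 in hypoxia. Its groups overlapped, since hypoxia A was at the level of normoxia and only hypoxia B was above it. The difference of SLC7A5 was 0.29 ± 0.21 (adjusted p = 0.301 by limma); it was -0.02 within letter A and 0.60 within letter B, without hypoxia A it was called (0.58, adjusted p = 0.0166), without hypoxia B it was -0.0022, and with scaling to hybridization controls it was -1.16. SLC3A1, the heavy chain of the kidney and gut cystine carrier, had signals of 69.3 and 92.9 in normoxia and of 254 and 119 in hypoxia and was not called (0.93, adjusted p = 0.308 by limma).

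SLC7A11 was the light chain that fell. Its protein, xCT, forms a cystine and glutamate exchanger together with SLC3A2, a source of cysteine for glutathione. SLC7A11 had 1336 and 1596 in normoxia and 788 and 812 in hypoxia (-0.85 ± 0.21, adjusted p = 0.0119 by limma). Both hypoxia arrays were close together and below normoxia, and the further probe sets gave -1.05 and -1.32. The call of SLC7A11 was lost without normoxia A (-0.98) or normoxia B (-0.72), with the mean of its probe sets (-1.07, adjusted p = 0.0632 by limma) and without an intensity trend (adjusted p = 0.0555). Of 8 light chain genes 6 were tested, 0 were called higher and 1 lower (15.3% and 22.8% of all genes), and the median difference was 0.31.

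The cationic amino acid transporters of the SLC7 family were not called. SLC7A1, the arginine and lysine importer CAT1, had 4087 and 4082 in normoxia and 4538 and 3999 in hypoxia (0.06 ± 0.16, adjusted p = 0.795 by limma). The hypoxia arrays lay on either side of the normoxia arrays, and its further probe sets past the filter ranged from 0.22 to 1.02. A dimmer one, under the filter, had 68.9 and 87.7 in normoxia and 15.9 and 16.2 in hypoxia (-1.35). SLC7A2, a second cationic carrier, had 313 and 186 against 94.9 and 20.2 without reaching the threshold (-1.88, adjusted p = 0.0797 by limma). Dimmer probe sets of SLC7A2, under the filter, gave -1.58 and 1.53. The other tested SLC7 genes, SLC7A6, SLC7A7, SLC7A8 and SLC7A9, had differences between 0.29 and 0.77 and were not called. Over the 8 tested SLC7 genes the median difference was 0.29, and 6 of them had overlapping groups.

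**Figure D2:**
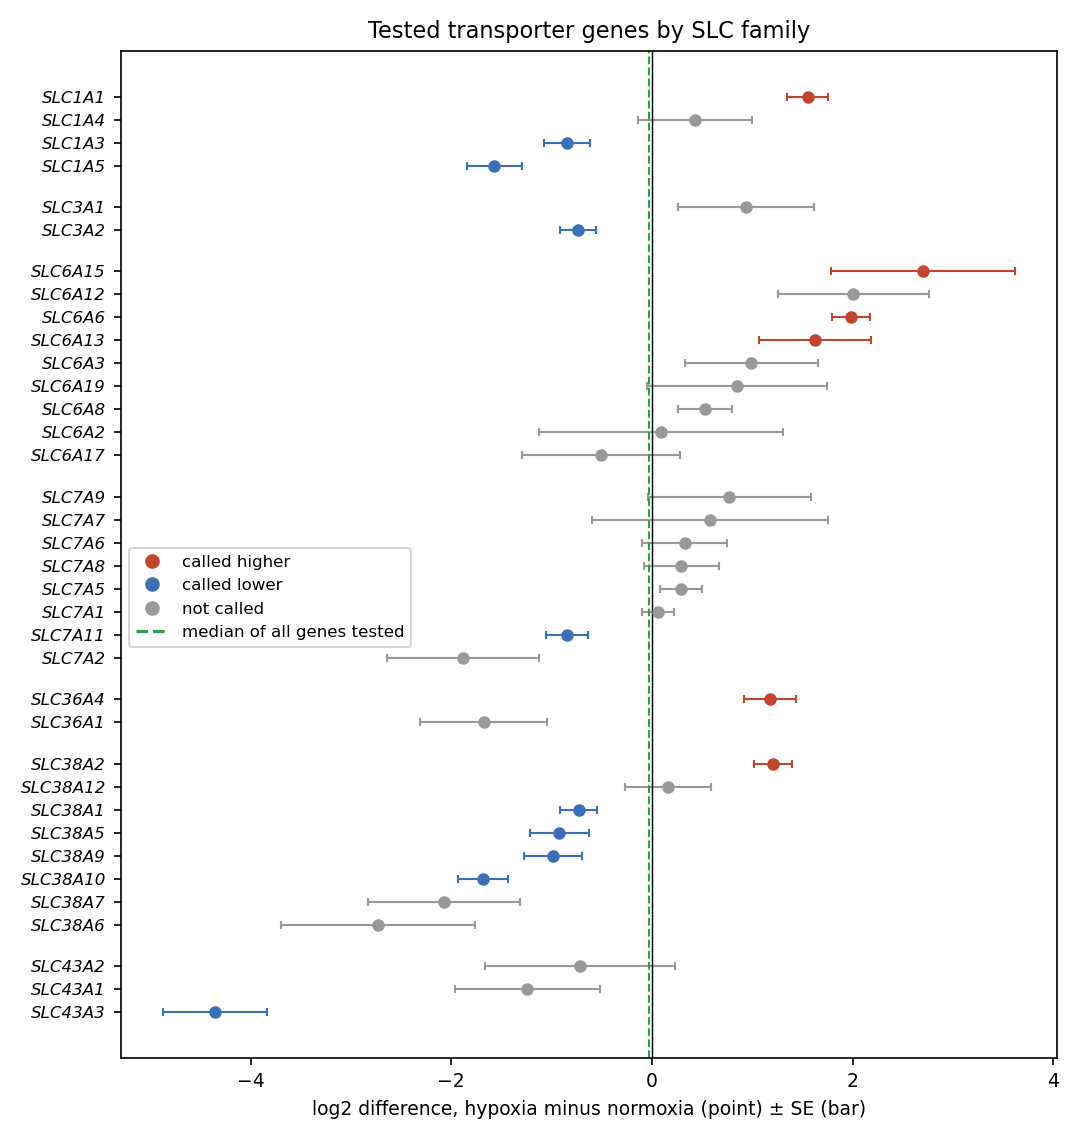
Log2 difference (hypoxia minus normoxia, point) with its SE (bar) for the 36 tested transporter genes, grouped by SLC family from SLC1 at the top to SLC43 at the bottom; red and blue points were called higher and lower, grey points were not called, and the dashed line is the median of all genes tested (-0.03). In SLC6, 8 of 9 points lie right of 0, in SLC38 6 of 8 lie left of it, and all 3 SLC43 points do. These signs are a description only, since 6 of the SLC6 genes passed the filter through their hypoxia signals. SLC38A6, SLC38A7, SLC43A2 and SLC43A3 passed it through normoxia. With scaling to hybridization controls the values of SLC36A4, SLC38A2 and SLC7A5 turn negative. Those of SLC1A1 (0.11), SLC6A6 (0.54), SLC6A13 (0.37) and SLC6A15 (1.75) stay positive but are not called. The median of the 9 SLC6 genes is then -0.22 and that of the 8 SLC7 genes -1.12.

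SLC38A2 rose, while 4 of the 8 tested SLC38 genes fell. SLC38A2, or SNAT2, is a sodium-coupled glutamine and alanine importer that cells make in larger amounts when amino acids are scarce. Its signal went from 19308 ± 3069 to 44390 ± 2918 (n = 2), with 17138 and 21478 in normoxia and 42327 and 46453 in hypoxia. The log2 difference was 1.21 ± 0.19 (adjusted p = 0.00145 by limma), its other probe sets gave 1.16 and 1.23, quantile normalization gave 0.43 (still called), and with scaling to hybridization controls it was -0.25, above the all-gene median of -1.40 under that scaling. All 3 probe sets thus moved alike with the signals as deposited.

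Its close relative SLC38A1, or SNAT1, a glutamine importer with similar substrates, fell. Its signals were 11811 and 10952 in normoxia and 5997 and 7808 in hypoxia (-0.73 ± 0.18, adjusted p = 0.0123 by limma), and its other probe sets past the filter gave -0.91 and -0.24; a dim one under it gave 0.23. SLC38A5, a glutamine, serine and glycine carrier that can run in both directions, went from 671 and 657 to 396 and 290.2 (-0.92 ± 0.30, adjusted p = 0.0371 by limma). SLC38A9, the lysosomal arginine sensor that signals to the kinase complex mTORC1, went from 663 and 671 to 358 and 296 (-0.98 ± 0.29, adjusted p = 0.0255 by limma). In each of these genes both hypoxia arrays were below both normoxia arrays. Without normoxia A the calls of SLC38A1 (-0.68), SLC38A5 (-0.91) and SLC38A9 (-0.99) were lost, and without normoxia B those of SLC38A5 (-0.94) and SLC38A9 (-0.98). The mean of all its probe sets gave -0.41 for SLC38A1 and -0.84 for SLC38A9, neither of them called (adjusted p = 0.166 and 0.186 by limma).

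SLC38A10 fell further, with signals of 1314 and 1244 in normoxia and of 339.5 and 428 in hypoxia. The difference was -1.69 ± 0.25 (adjusted p = 0.000973 by limma), and its other probe sets past the filter gave -2.23 and -0.70. Its 4 dimmer probe sets, under the filter, were on both sides of 0 (-2.15, -0.41, 0.48 and 1.58). With the mean of all its probe sets in place of the brightest, the difference was -0.73 and not called (adjusted p = 0.221 by limma). SLC38A6 and SLC38A7 were lower on both hypoxia arrays but not called. SLC38A6 had 335 and 127 against 11.7 and 10.9 (-2.73, adjusted p = 0.0523 by limma), and SLC38A7, a lysosomal exporter of glutamine, had 184 and 261 against 44.1 and 25.7 (-2.07, adjusted p = 0.0576 by limma). SLC38A12 had overlapping groups (0.16). Of 11 SLC38 genes 8 were tested, with 1 called higher, 4 lower (15.3% and 22.8% of all genes) and a median difference of -0.95. For 2 of the 8, SLC38A6 and SLC38A7, the hypoxia mean was under the filter, so they passed it through their normoxia signals.

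SLC43A3, known as a purine nucleobase transporter, had the largest loss among the tested members. It was at 1071 and 864 in normoxia and at 41.5 and 11.9 in hypoxia, a log2 difference of -4.36 ± 0.52 (adjusted p = 0.000362 by limma). Both hypoxia signals were below the Bacillus probe sets' highest signals on their own arrays, 305.3 and 226, so the hypoxia level lies within the range of those background signals. The hypoxia mean of SLC43A3, 26.7, was under the filter, so the gene passed it through its normoxia signals. The second probe set of SLC43A3 gave -2.87. The large neutral amino acid carriers SLC43A1 (194 and 431 against 43.2 and 241) and SLC43A2 (149 and 99.3 against 16.3 and 173) had overlapping groups and were not called.

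Of the SLC36 genes, SLC36A4 rose and the proton-coupled SLC36A1 was not called. SLC36A4, which carries proline and tryptophan with high affinity, had 1203 and 1199 in normoxia and 2082 and 3623 in hypoxia (1.18 ± 0.26, adjusted p = 0.00668 by limma); with scaling to hybridization controls it was -0.26, and without an intensity trend in the fit it was not called (adjusted p = 0.0716 by limma). Without hypoxia B the difference of SLC36A4 was 0.78. Its second probe set gave 0.82. SLC36A1, a carrier of small amino acids at the lysosome and the plasma membrane, had 273 and 291 in normoxia and 124 and 38.2 in hypoxia (-1.67, adjusted p = 0.0655 by limma). Both hypoxia arrays of SLC36A1 were lower than both normoxia arrays. A dimmer probe set of SLC36A1, under the filter, gave 1.43 with overlapping groups.

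Probe sets past the filter for the same gene mostly moved the same way. Among the 16 tested members with more than 1 probe set past the filter, 12 had no probe set of opposite sign to the brightest, and 4, SLC1A4, SLC6A8, SLC6A17 and SLC7A8, had at least 1. None of these 4 was called. SLC7A8, the light chain LAT2, showed the widest spread of them, from -0.10 to 2.44. Under the filter, dimmer probe sets of some called genes had the opposite sign. They were those of SLC1A3 (0.60), SLC6A15 (-0.16, -0.51 and -0.81), SLC38A1 (0.23) and SLC38A10 (0.48 and 1.58).

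**Figure D3:**
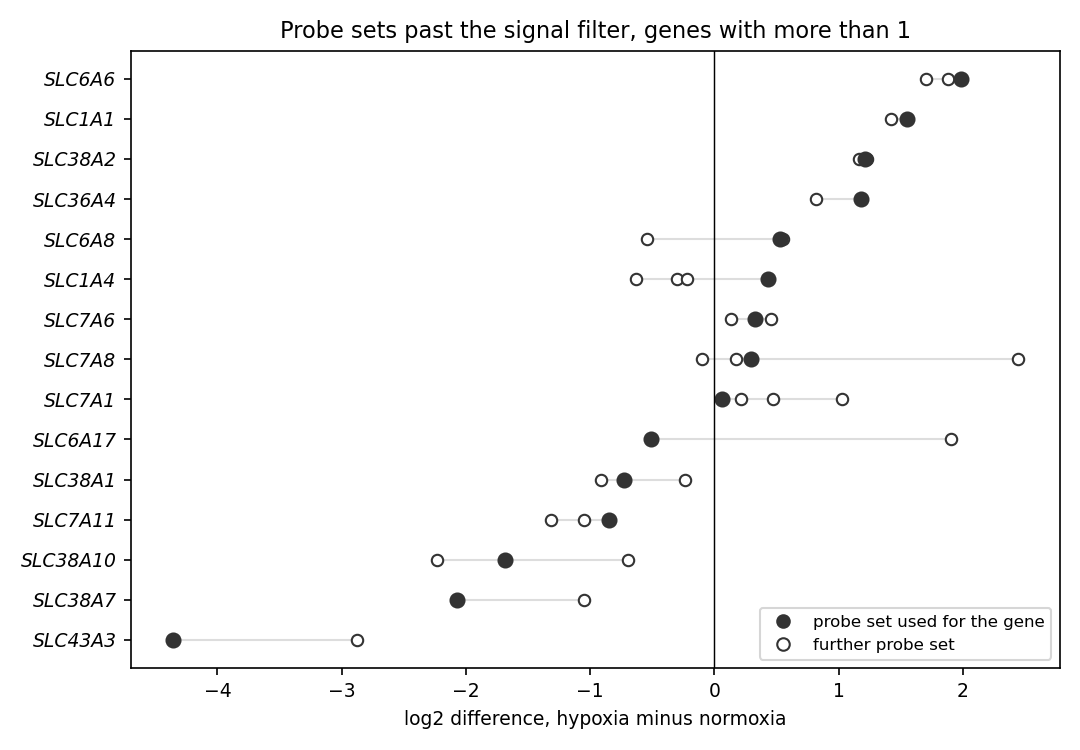
Log2 difference (hypoxia minus normoxia) of each probe set past the signal filter for tested transporter genes with more than 1; filled points are the probe set used for the gene and open points are further probe sets. The 3 SLC38A2 probe sets lie between 1.16 and 1.23 and the 3 SLC6A6 ones between 1.70 and 1.99, while those of SLC1A4, SLC6A8, SLC6A17 and SLC7A8 lie on both sides of 0; with scaling to hybridization controls SLC38A2 is at -0.25.

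Genes of the amino acid response moved in both directions. Of 24 listed genes known to act in or under the ATF4 response, 22 were tested, 10 were called higher and 6 lower, against 15.3% and 22.8% of all genes, with a median difference of 0.36 (all genes -0.03). STC2, a secreted stress hormone, rose by 2.56 on the log2 scale, ATF3, a stress transcription factor, by 2.32, DDIT4, an inhibitor of mTORC1, by 2.03 and EIF2AK3, the PERK kinase, by 1.91. ASNS, asparagine synthetase, fell from 9048 ± 676 to 5026 ± 86.2 (n = 2; -0.84, adjusted p = 0.00327 by limma), and was chosen after its values were seen, as was ATF4 itself, which was not called (0.51, adjusted p = 0.0788 by limma).

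Genes of glutathione and glutamine metabolism were called in both directions too. The list for glutathione from cystine had 11 genes and also held the thioredoxin reductase TXNRD1 and the transcription factor NFE2L2. Of the 11 genes 9 were tested, 4 were called higher and 3 lower (all genes 15.3% and 22.8%). GSS, glutathione synthetase, fell by 2.73 on the log2 scale, CHAC1, which degrades glutathione, by 1.15 and GSR, glutathione reductase, by 0.81. TXNRD1 rose by 1.06. The other genes of the list called higher, CTH, GCLC and GPX4, rose by 0.73, 0.71 and 0.67, and the list's median difference was 0.40. For glutamine and glutamate enzymes, 14 of 20 listed genes had a probe set of their own and were tested, with 2 called higher and 5 lower (all genes 15.3% and 22.8%) and a median of -0.50. CTPS1, CAD and PPAT, which use glutamine nitrogen to make nucleotides, fell by 2.89, 1.67 and 1.06 on the log2 scale, and GOT2, the mitochondrial aspartate aminotransferase, fell by 0.85.

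In the machinery that reports amino acids to mTORC1, 31 of 32 listed genes were tested, 4 were called higher and 12 lower (all genes 15.3% and 22.8%), with a median of -0.49. SEH1L, a member of the GATOR complex, fell by 2.97 on the log2 scale, LAMTOR2, a lysosomal scaffold, by 1.94 and LARS1, the leucyl-tRNA synthetase and leucine sensor, by 1.82, while RRAGD, a Rag GTPase, rose by 1.73. Of 10 branched-chain catabolism genes 9 were tested, 1 was called higher and 3 lower (all genes 15.3% and 22.8%): IVD, DLD and ACADSB, dehydrogenases of the route, fell by 3.38, 1.56 and 1.49, and PPM1K, the phosphatase that activates it, rose by 0.94. Of 20 amino acid carriers in other SLC or lysosomal families, 14 were tested, 1 was called higher and 7 lower (all genes 15.3% and 22.8%), with a median of -0.77. The mitochondrial carriers SLC25A15 (ornithine), SLC25A13 (aspartate and glutamate) and SLC25A39 (glutathione) fell by 2.76, 2.35 and 1.28, and CTNS, the lysosomal cystine exporter, fell by 2.53.

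**Figure D4:**
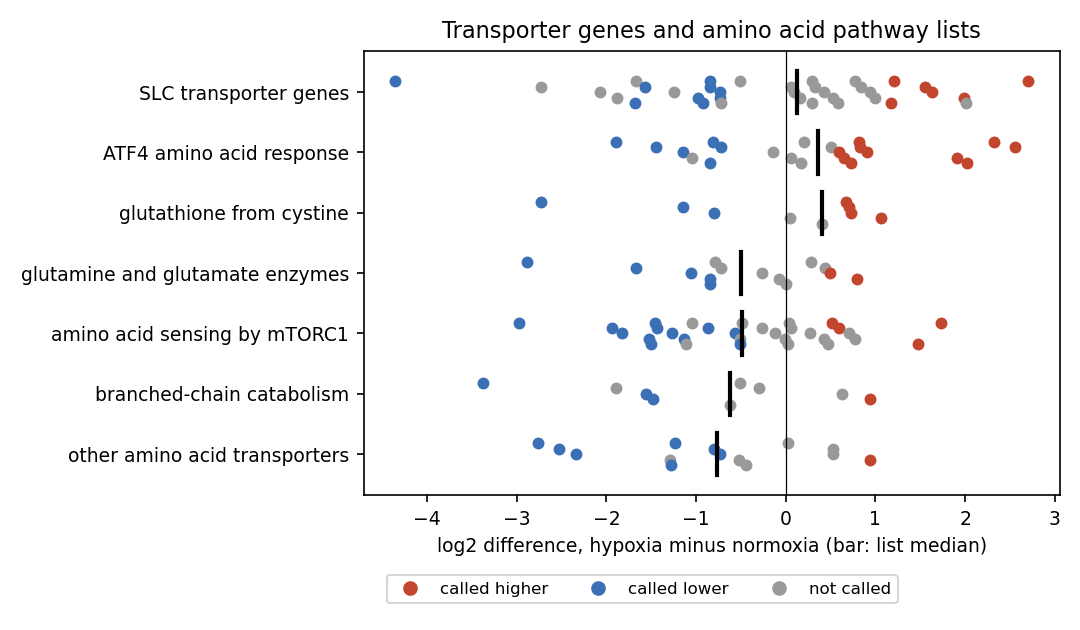
Log2 difference (hypoxia minus normoxia) of each tested gene of the SLC transporters and of 6 lists of amino acid genes, 1 row per list; red and blue points were called higher and lower, grey points were not called, and the black bar is the median of the list (0.12 for the 36 transporter genes). The bars of the ATF4 and glutathione lists lie right of 0 (0.36 and 0.40) and those of the other 4 lists between -0.77 and -0.49; scaling to hybridization controls moves all genes down, their median to -1.40.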

How the data were processed

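RNA of HCT116 cells was measured on 4 arrays. The deposited values are intensities on a linear scale, 1 per probe set, made by the authors with MAS5 according to the submitters' processing notes, which name no version here. The equal trimmed means, without the lowest and highest 2% of values, show scaling to a common level. No 2 arrays shared more than 1 identical value. Of 54675 probe sets, 41091 were listed for 1 gene in the platform annotation. The members' 62 symbols all matched RefSeq genes. They had 147 probe sets, 67 of them past the filter, and 9 more listed for several genes were left out.

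The pseudocount, 23.7, is the 25th percentile of all values. The model was limma 3.58.1, run in R 4.3.3 (lmFit, eBayes with an intensity trend, two-sided), which was tested on simulated data. Promoters and figures were made with Python 3.11.15 and matplotlib 3.10.9. The number of arrays limits the precision. No batch is given in the labels beyond the letters.

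Members and lists were chosen with earlier results of these data known. Named were members called with a log2 difference of at least 1 in size, the brightest tested member of each family, SLC3A2, SLC7A5, SLC7A11 and SLC1A5, and of each pathway list up to 4 called genes with the largest difference. Other named genes were chosen after their values were seen. Alternatives were the pseudocount, scaling, filter, probe set, trend, the letter as a block, and each array left out.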

Additional observations from a re-analysis of the deposited data

How the results depend on the processing

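With 15 alternatives, the 16 genes followed (the 15 called and SLC7A5) gave 237 values, of which 187 kept direction and side of the threshold, 45 lost the call, 1 gained it and 4 changed sign. SLC1A5 and SLC43A3 lost their calls in none, but the probe set choices could not change the value of SLC1A5, which has 1 probe set. Leaving out _x_at and _s_at sets left the difference of each followed gene, SLC43A3 included, as in the main fit. The exception was SLC6A13, which was then not tested. These unchanged differences are counted among the values that kept direction and side. Scaling to hybridization controls gave 0 members called higher and 14 lower (limma), with SLC7A5 at -1.16, SLC36A4 at -0.26 and SLC38A2 at -0.25; over all genes it gave 52 higher and 5514 lower. Scaling to the 75th percentile gave 6 and 8 members, and 2373 and 2405 of all genes against 1927 and 2876. Averaging all probe sets of a gene gave 5 members lower, and no intensity trend gave 6 lower. Leaving out 1 array at a time gave 4 to 10 members higher and 3 to 13 lower: without hypoxia A 10 and 13, without normoxia A 4 and 3, without normoxia B 4 and 4, without hypoxia B 6 and 12. Over all genes these fits gave 1204 to 2510 higher and 1371 to 3747 lower. A group left with 1 array is assumed to vary like the other. SLC7A5 then ranged from -0.0022 (without hypoxia B) to 0.58 (without hypoxia A). With the letter as a replicate block 7 members were higher and 11 lower, and 2222 and 3265 of all genes. In that fit SLC6 had 4 genes called higher, and SLC36 had 1 and SLC38 had 5 called lower. Same-letter deviations correlated at 0.0875 over genes. The titles share exp and the letter, and pairing is not stated. The calls of SLC6A13 and SLC6A15 were each lost in 8 alternatives, that of SLC38A5 in 6 and that of SLC38A9 in 5. Those of SLC1A3 and SLC7A11 were lost in 4 and those of SLC3A2 and SLC38A1 in 3. The calls of SLC1A1, SLC6A6, SLC36A4 and SLC38A10 were lost in 1, which for SLC1A1 and SLC6A6 was the scaling to hybridization controls. Except where values above bear on it, the cause was not tested. Signal near background limits the dim SLC6 genes and the hypoxia level of SLC43A3.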

Other observations

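The 24 members that were not tested, 20 transporter genes and 4 antisense genes, had means over the 4 arrays between 10.2 and 96.2, and the highest single signal was 288. They were SLC1A2, SLC1A6, SLC1A7, SLC6A4, SLC6A5, SLC6A7, SLC6A9, SLC6A11, SLC6A14, SLC6A16, SLC6A18, SLC6A20, SLC7A3, SLC7A4, SLC7A10, SLC7A13, SLC7A14, SLC38A3, SLC38A4, SLC38A11, SLC6A12-AS1, SLC7A11-AS1, SLC38A2-AS1 and SLC38A4-AS1. Among them were 3 SLC1, 9 SLC6, 5 SLC7 and 3 SLC38 genes. SLC6A9, the glycine transporter GLYT1, had 99.2 and 114 in normoxia and 11.1 and 15.9 in hypoxia. SLC7A13 had 34.3 and 44.4 in normoxia and 7.29 and 288 in hypoxia, a spread between replicates that spans the normoxia values. SLC7A8 had a dim probe set with 12.5 and 19.4 in normoxia and 171 and 212 in hypoxia, while the probe set used for it had 319 and 259 against 295 and 433. These genes were chosen after their values were seen.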
